A study of Mus musculus with 6 samples.

Results

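Pdx1 and 5 other homeobox genes that are active in pancreatic progenitors, Nkx6-1, Nkx6-2, Nkx2-2, Mnx1 and Prox1, were followed in mouse pancreatic buds cultured with tetrabenazine (TBZ). The 6 genes were chosen by name and are 6 of the 54532 genes in the deposited table. TBZ buds were taken at E12.5 and kept for 2 days in medium with 10% fetal bovine serum, 0.1% DMSO and 0.1 µM TBZ throughout. Control buds had the same medium and DMSO without TBZ. TBZ inhibits VMAT2, the transporter that loads monoamines into vesicles, and the study asked how this pathway acts on the developing pancreas. Each group had 3 libraries of poly-A RNA from whole buds, in which epithelium, mesenchyme, vessels and nerves are mixed. Strain, sex and the number of buds in a library are not given in the sources used here.

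Homeobox genes encode transcription factors that bind DNA through a homeodomain. Pdx1 marks the foregut endoderm that forms the pancreas and duodenum, and without it the pancreatic bud does not grow out. In the early bud it is made together with Nkx6-1, Nkx2-2, Mnx1 and Prox1 in progenitors that can form every pancreatic epithelial lineage. As the bud branches, Nkx6-1 is kept in the trunk, where endocrine precursors arise, and Pdx1, Nkx6-1, Nkx2-2 and Mnx1 later act in beta cells.

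All 6 genes had a higher mean in TBZ buds than in control buds, by 1.12-fold for Mnx1 to 1.53-fold for Nkx6-2. In 4 of them, Pdx1, Nkx6-1, Nkx2-2 and Nkx6-2, every TBZ library lay above every control library. Of 18226 tested genes, 8.47% showed that pattern with TBZ higher. None of the 6 passed the edgeR quasi-likelihood test at an adjusted p under 0.05, which 0.187% of all tested genes passed. In that test 4 of the 6 had an unadjusted p under 0.05, all with TBZ higher. Of all tested genes 9.61% did so in either direction and 5.08% with TBZ higher. With DESeq2 on the same counts Nkx6-1, Nkx2-2 and Pdx1 passed, where 1.43% of its tested genes passed in either direction and 1.1% with TBZ higher. In the authors' deposited table the adjusted p was under 0.05 for those 3 genes too, and for 0.767% of the genes with an adjusted p there, 0.588% with TBZ higher. Its values nearly equal those of this DESeq2 fit, with Pdx1 at a log2 fold change of 0.395 and 222 genes past the threshold in each. The shares differ because 28930 genes have an adjusted p in the deposited table and 15491 in this fit. They are not counted as separate results here. In edgeR without a filter on low counts Prox1 joined Nkx6-1, Nkx2-2 and Pdx1, where 1.42% of genes passed, 0.842% with TBZ higher.

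The libraries held 35825033 to 40973254 counted reads in TBZ and 41005819 to 50620936 in control buds. Control replicate 3 stood apart from the rest. It lay at -36.7 on the first principal component, which carried 34.7% of the variance, while TBZ replicates 1 and 3 lay at 25.5 and 26.3 and the other 3 libraries between -5.75 and -3.99. The 12 foregut and stomach markers summed to 268 CPM (counts scaled to library size with edgeR's TMM factors) in that library, against 84.1 to 156 CPM in TBZ buds and 128 and 141 CPM in the other controls. Tff1 and Nkx2-1 of these markers had no read in any library. Of the 9 foregut and stomach markers tested, 2 had a log2 fold change above 0 and none passed the edgeR test, and the 2 of highest FPKM, Barx1 and Cym, were at -0.31 and -1.46. Tff2, a trefoil factor of the stomach and the marker of smallest edgeR p, had a log2 fold change of 1.37 ± 0.32 (SE, edgeR adjusted p = 0.185), at 1.41 CPM in TBZ and 0.538 CPM in control buds, and it passed with DESeq2 (adjusted p = 0.0316). The median of the 9 was -1.27, and -0.26 without control replicate 3. The part of this library in the results was not tested beyond leaving it out. Its effect is given below for the 6 homeobox genes and some of the lists, not for every gene named.

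FPKM scales reads to gene length and library size, so it allows levels to be set against each other between genes. The order of the 6 genes by FPKM was the same in all 6 libraries. In TBZ buds Nkx6-1 stood at 47.2 ± 3.66 FPKM, Pdx1 at 29.1 ± 0.708, Nkx2-2 at 22.5 ± 2.53, Prox1 at 12.8 ± 1.45, Mnx1 at 3.8 ± 0.093 and Nkx6-2 at 0.675 ± 0.0556 (SD, n = 3). In control buds the FPKM values were 34.3 ± 4.03 for Nkx6-1, 22.1 ± 3.97 for Pdx1, 16.5 ± 1.45 for Nkx2-2, 10.4 ± 2.10 for Prox1, 3.41 ± 0.593 for Mnx1 and 0.442 ± 0.0506 for Nkx6-2 (SD, n = 3). Neighbours in this order did not overlap within either group, although Pdx1 and Nkx2-2 came close in control buds, where the lowest Pdx1 value was 18.4 FPKM and the highest Nkx2-2 value 17.96 FPKM. The deposited table gives 232 genes the class Homeobox, a class that leaves out Prox1, whose prospero-type homeodomain is listed apart. Among these 232 genes by mean FPKM over all libraries, Nkx6-1 ranked 4, Pdx1 8, Nkx2-2 11, Mnx1 40 and Nkx6-2 82. The 3 genes above Nkx6-1 were Barx1 at 66.3 FPKM, Nkx3-2 at 52.1 FPKM and Tlx1 at 47.8 FPKM, transcription factors of stomach or splenopancreatic mesenchyme.

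**Figure D1:**
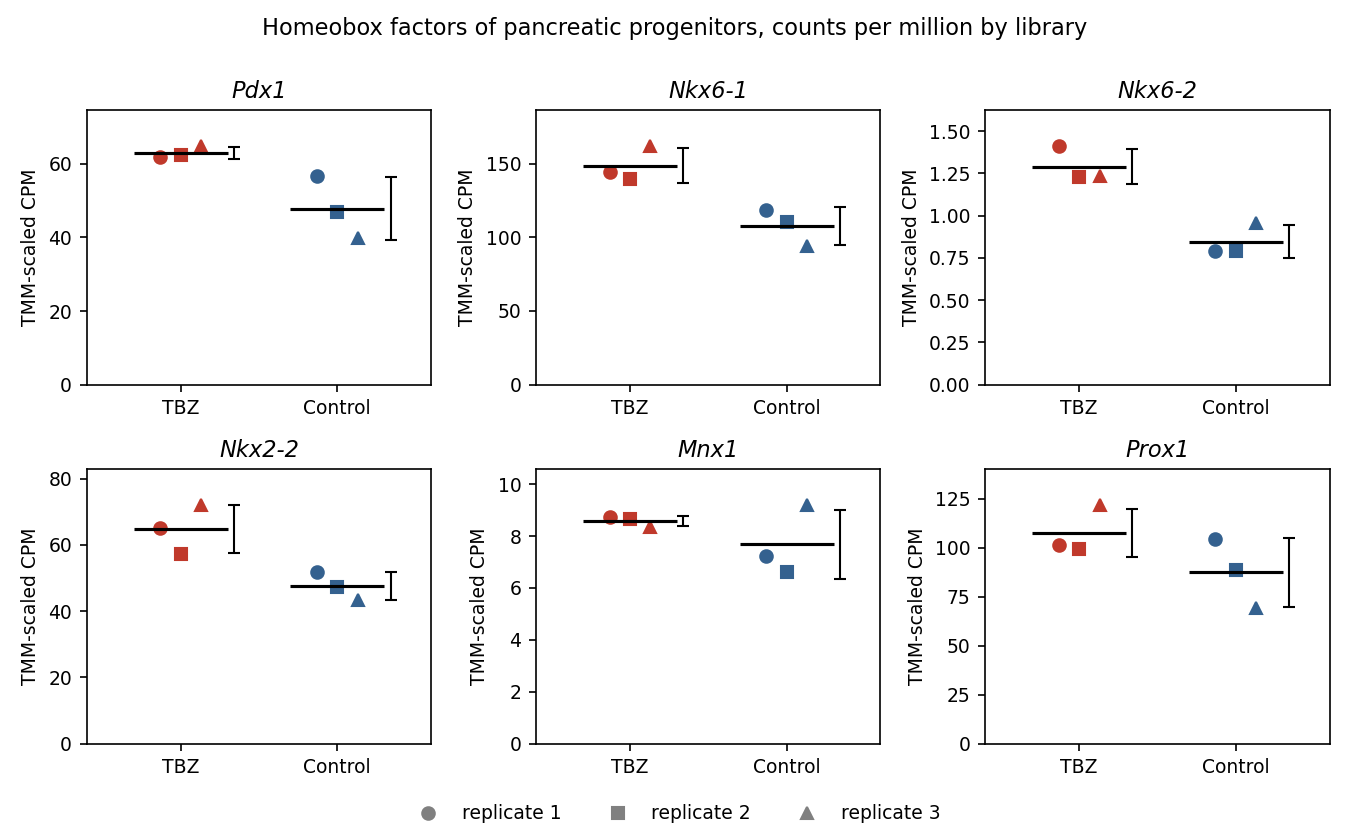
TMM-scaled CPM of each of the 6 homeobox genes (vertical axis, from 0) in the 3 TBZ and 3 control libraries, with the horizontal line at the group mean and the bar at ± SD. TBZ libraries lie above all controls for Pdx1, Nkx6-1, Nkx6-2 and Nkx2-2, and the groups overlap for Mnx1 and Prox1.

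The windows from 250 bases before to 50 bases after the annotated starts of the 6 genes (RefSeq, GRCm38.p6; 7 windows, since Prox1 has 2) were searched for 3 short motifs on both strands. The E-box CACGTG, a site that basic helix-loop-helix factors such as USF can bind, was in the windows of Pdx1 and Nkx2-2, and is in 7.15% of all 32851 windows. These 2 stretches of 30 bases are shown because they are the places where both promoters hold the same letters, with the E-box in capitals. It begins 51 bases before the start of Pdx1 and 173 bases before the start of Nkx2-2.
Pdx1: tccagggtaaacCACGTGgggtgccccaga
Nkx2-2: aagacccgcccaCACGTGgccaacctttgc
The first lies at chr5:147270034-147270063 on the plus strand, which lies inside the first Pdx1 exon of the GENCODE annotation, and the second at chr2:147186558-147186587 on the minus strand. The homeodomain core TAATTA was in none of the 7 windows and is in 5.29% of all windows, and the CCAAT box was in 4 of the 7 and is in 37.4% of all windows. These are matches of letters only, and no binding was measured.

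Pdx1 (ENSMUSG00000029644) is a gene of 2 exons on chromosome 5, from position 147269959 to 147275848 on the plus strand (mm10). It stood at 61.8, 62.3 and 64.9 CPM in TBZ replicates 1 to 3, against 56.8, 46.9 and 39.8 CPM in control replicates 1 to 3. The TBZ libraries were close to each other and the controls were spread out, and the lowest TBZ library lay above the highest control. The coefficient of variation was 2.58% in TBZ and 17.9% in control buds (n = 3 each). The log2 fold change was 0.40 ± 0.11 (SE; 95% interval 0.16 to 0.64), with an edgeR adjusted p of 0.249. Pdx1 was past the threshold in the authors' deposited table, at an adjusted p of 0.0157. Without control replicate 1 the log2 fold change was 0.54 and passed at an edgeR adjusted p of 0.0315, and without control replicate 3 it was 0.28, with an adjusted p of 0.245.

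Nkx6-1 (ENSMUSG00000035187) encodes a repressor that keeps trunk cells apart from the acinar tip and is later needed in beta cells. It lies on chromosome 5 from 101658139 to 101664996 on the minus strand. It stood at 144, 140 and 162 CPM in TBZ replicates 1 to 3, against 119, 110 and 94.0 CPM in control replicates 1 to 3. The groups were apart, and TBZ replicate 3 and control replicate 3 formed the 2 ends of the range. The log2 fold change was 0.46 ± 0.09 (SE; 95% interval 0.27 to 0.66) with an edgeR adjusted p of 0.0943, the smallest of the 6 genes and place 78 among all tested genes by p. The authors' deposited table has it at an adjusted p of 2.47e-05. Without control replicate 3 the log2 fold change was 0.38 (edgeR adjusted p = 0.0860), and over the 6 fits that each left out 1 library it ran from 0.38 to 0.54 with none past the threshold.

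Nkx6-2 (ENSMUSG00000041309), the close relative of Nkx6-1 that is also made in the early pancreatic epithelium and in oligodendrocytes, lies on chromosome 7 from 139579376 to 139582797. It was the weakest of the 6 genes, with 57, 50 and 44 reads in TBZ replicates 1 to 3 and 37, 40 and 40 reads in control replicates 1 to 3. These gave 1.41, 1.23 and 1.23 CPM in TBZ, against 0.790, 0.789 and 0.957 CPM in control buds. The groups did not overlap in CPM, but each value rests on few reads. The exact 95% Poisson interval, which covers counting error only, ran from 43.2 to 73.9 reads for TBZ replicate 1 and from 26.1 to 51.0 reads for control replicate 1. The log2 fold change was 0.61 ± 0.21 (SE; 95% interval 0.14 to 1.09), the largest of the 6 in that fit and the one with the widest interval, with an edgeR adjusted p of 0.391. The size depended on the scale. With limma on log2(FPKM + pseudocount) it was 0.52, 0.32 and 0.22 at pseudocounts of 0.1, 0.5 and 1, and at the last 2 it was below the values of Nkx6-1, Nkx2-2 and Pdx1, since a pseudocount near the level of a gene shrinks its fold change and its SE. It was 0.71 without control replicate 3 (edgeR adjusted p = 0.383) and did not pass with DESeq2 or in the authors' deposited table (adjusted p = 0.613 there). Within libraries the FPKM of Nkx6-1 was 62.2, 69.2 and 79.8 times that of Nkx6-2 in TBZ replicates 1 to 3, and 91.5, 85.0 and 59.7 times in control replicates 1 to 3.

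Nkx2-2 (ENSMUSG00000027434) is needed for beta cells to form and is kept in most endocrine cells. It lies on chromosome 2 from 147177546 to 147194243 on the minus strand. It stood at 65.2, 57.3 and 72.0 CPM in TBZ replicates 1 to 3, against 51.7, 47.4 and 43.4 CPM in control replicates 1 to 3. TBZ replicate 2 was the lowest of its group and still above each control. On the log2 scale the difference was 0.45 ± 0.09 (SE; 95% interval 0.25 to 0.64) with an edgeR adjusted p of 0.124, and the authors' deposited table gives an adjusted p of 0.000333. Without control replicate 3 the log2 fold change was 0.39 (edgeR adjusted p = 0.180), and the lowest value, 0.36, came without TBZ replicate 3.

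Mnx1 (ENSMUSG00000001566), which the dorsal bud needs to form and which also marks motor neurons, lies on chromosome 5 from 29473034 to 29478470. It stood at 8.72, 8.66 and 8.35 CPM in TBZ replicates 1 to 3, against 7.23, 6.63 and 9.19 CPM in control replicates 1 to 3. Control replicate 3 was above all TBZ libraries, the reverse of its place for Pdx1, Nkx6-1, Nkx2-2 and Prox1. This was a log2 fold change of 0.16 ± 0.13 (SE; 95% interval -0.12 to 0.45) with an edgeR adjusted p of 0.729, and without control replicate 3 it was 0.31 (edgeR adjusted p = 0.383). Of the motor neuron markers, Chat was at 0.198 CPM in TBZ and 0.241 CPM in control buds on average, Lhx3 at 0.0410 and 0.0160 CPM, and Olig2 had no read.

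Prox1 (ENSMUSG00000010175), a factor of pancreatic progenitors that also fixes the identity of liver cells and lymphatic vessels, lies on chromosome 1 from 190118035 to 190170714. It stood at 101, 99.6 and 122 CPM in TBZ replicates 1 to 3, against 105, 88.6 and 69.5 CPM in control replicates 1 to 3. The groups overlapped, with control replicate 1 above 2 of the TBZ libraries. TBZ over control gave a log2 fold change of 0.29 ± 0.13 (SE; 95% interval -0.01 to 0.60) with an edgeR adjusted p of 0.534, and it was 0.16 without control replicate 3 (edgeR adjusted p = 0.649). Lymphatic markers summed to 56.6 to 66.6 CPM in TBZ and 60.0 to 71.3 CPM in control buds, with Lyve1 under 1 CPM on average in both groups and Ccl21a at 0. Of the 6 lymphatic markers tested, 2 were above 0 and none passed the edgeR test, among them Sox18 at a log2 fold change of 0.00 and Pdpn at -0.30. Liver markers summed to 72.2 to 101 CPM in TBZ and 65.4 to 93.5 CPM in control buds, most of it Serpina1b (68.2 and 60.5 CPM), while Alb stood at 1.22 and 0.867 CPM. Afp stood at 11.2 CPM in TBZ and 12.9 CPM in control buds. Of the 5 liver markers tested, 3 were above 0 with a median of 0.09 and none passed the edgeR test, and without control replicate 3 the count was 2 and the median -0.03. The part of these cell types in the Prox1 values was not tested.

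**Figure D2:**
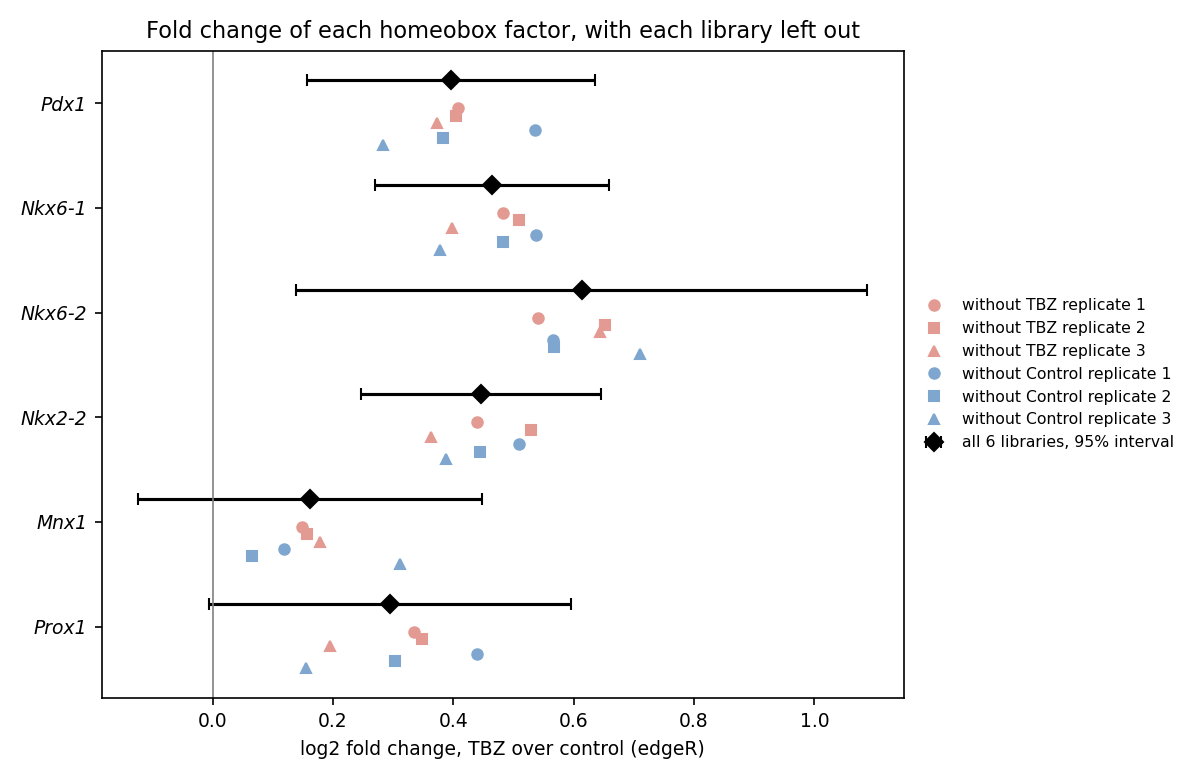
Log2 fold change of TBZ over control from edgeR (horizontal axis) for each homeobox gene, with all 6 libraries (black, 95% interval) and with each library left out in turn (coloured marks). All marks lie above 0, and control replicate 3 gives the lowest value when it is left out for Pdx1, Nkx6-1 and Prox1 and the highest for Nkx6-2 and Mnx1.

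Each gene's share of the summed FPKM describes the proportions among the 6. Nkx6-1 made up 40.4, 40.6 and 41.1% of the summed FPKM of the 6 genes in TBZ replicates 1 to 3, against 38.5, 40.3 and 39.2% in control replicates 1 to 3. Pdx1 made up 23.9 to 26.3% in TBZ and 24.1 to 26.8% in control buds. Mnx1 made up 2.96 to 3.51% in TBZ, against 3.27, 3.37 and 5.35% in control replicates 1 to 3, so control replicate 3 stood above the other libraries. Nkx6-2 made up 0.515 to 0.649% in TBZ and 0.421 to 0.657% in control buds. The FPKM ratio of Nkx6-1 to Pdx1 was 1.62 ± 0.0891 in TBZ and 1.56 ± 0.106 in control buds (SD, n = 3 each), which differed by 0.06 on the log2 scale (two-sided exact permutation p = 0.6). Of 6 such ratios compared between the groups, the smallest p was 0.3, for Prox1 over Pdx1 at 0.438 ± 0.0389 in TBZ and 0.470 ± 0.0184 in control buds (two-sided exact permutation test, n = 3 each, 0.7 after Benjamini-Hochberg adjustment over the 6 ratios), and 3 libraries against 3 cannot go below 0.1, so these tests do not show that the ratios were alike. Mnx1 over Pdx1 was 0.131 ± 0.00631 in TBZ and 0.160 ± 0.0540 in control buds (SD, n = 3 each), with control replicate 3 at 0.222. The summed FPKM of the 6 genes was 114, 109 and 125 in TBZ replicates 1 to 3, against 98.1, 87.1 and 76.1 in control replicates 1 to 3. In whole buds, fewer cells of a type and less RNA per cell cannot be told apart.

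Over the 6 libraries, the log2 CPM of Pdx1 followed that of Nkx6-1 (Pearson r = 0.954), Prox1 (0.930) and Nkx2-2 (0.902) closely, that of Nkx6-2 less so (0.608) and that of Mnx1 hardly (0.0754). These values describe the libraries, which share the 2 treatment groups and control replicate 3, and carry no test. When 12109 protein-coding genes that averaged 1 FPKM or more were ordered by likeness to Pdx1, Nkx6-1 was in place 103, Prox1 in place 208, Nkx2-2 in place 395 and Mnx1 in place 5788. The 5 genes closest to Pdx1 were Pitpnc1 (r = 0.998), Erich5 (0.996), Gpatch8 (0.995), Ankrd17 (0.995) and Pdzk1ip1 (0.994), with log2 fold changes of 0.10 to 0.28 and edgeR adjusted p from 0.269 to 0.540.

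Several of the genes overlap other transcripts, and the library kit named in the labels is not stated to keep strand. Pdx1 has Plut, a non-coding gene on the other strand whose span overlaps it by 1563 bases with no exon base in common. Plut stood at 2.77, 3.22 and 2.83 CPM in TBZ replicates 1 to 3, against 2.50, 2.50 and 2.78 CPM in control replicates 1 to 3, a log2 fold change of 0.18 ± 0.14 (SE, edgeR adjusted p = 0.731). The groups overlapped, unlike those of Pdx1. Gm27033, a lincRNA 4871 bases beyond Pdx1, had a log2 fold change of 0.21 ± 0.14 (SE, edgeR adjusted p = 0.668), and the microRNA gene Mir7k had at most 4 reads in any library. The ParaHox neighbours of Pdx1 in the same cluster were close to silent. Cdx2, an intestinal factor, averaged 0.0363 CPM in TBZ and 0.00657 CPM in control buds, with at most 3 reads in a library, and Gsx1 averaged 0.00826 and 0.0208 CPM.

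Nkx2-2 shares 278 of its exon bases (9.67%) with Nkx2-2os on the other strand, so reads there cannot be told apart without strand. Nkx2-2os had 29, 19 and 22 reads in TBZ replicates 1 to 3 and 20, 21 and 15 in control replicates 1 to 3, few beside the 1815 to 2630 reads of Nkx2-2. In CPM it did not overlap between groups, with a log2 fold change of 0.58 ± 0.29 (SE, edgeR adjusted p = 0.577). The other antisense gene at that locus, 6430503K07Rik, had a log2 fold change of 0.29 ± 0.18 (SE, edgeR adjusted p = 0.649) and shares no exon base with Nkx2-2. Prox1 shares 133 exon bases (1.59%) with Prox1os, which stood at 1.08 ± 0.187 CPM in TBZ and 0.749 ± 0.0702 CPM in control buds (SD, n = 3 each) with an edgeR adjusted p of 0.537. Gm28172, antisense within Prox1, had a log2 fold change of 0.43 ± 0.33 (SE, edgeR adjusted p = 0.719).

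Nkx6-2 shares 246 exon bases (12.9%) with the end of Inpp5a, an inositol phosphatase gene on the other strand that had 2331 to 3297 reads a library, so the 37 to 57 reads of Nkx6-2 are uncertain. Inpp5a stood at 67.5 ± 3.60 CPM in TBZ and 66.5 ± 1.96 CPM in control buds (SD, n = 3 each). This came to 0.02 ± 0.05 on the log2 scale (SE, edgeR adjusted p = 0.923). The value of the Nkx6-2 neighbour Cfap46 was -0.16 ± 0.39 (SE, adjusted p = 0.928), that of the Mnx1 neighbour Nom1 -0.02 ± 0.04 (SE, adjusted p = 0.894), and the Mnx1 neighbour Gm24538 had no read. No annotated gene lies within 20 kb of Nkx6-1. Stretches of 50 bases from the transcripts of Pdx1, Nkx6-1 and Mnx1 occurred in no other gene, and those of Nkx2-2, Nkx6-2 and Prox1 that did occur elsewhere (8.04, 10.7 and 1.00%) were in these antisense or overlapping partners, so the NK6 pair shared no such stretch.

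**Figure D3:**
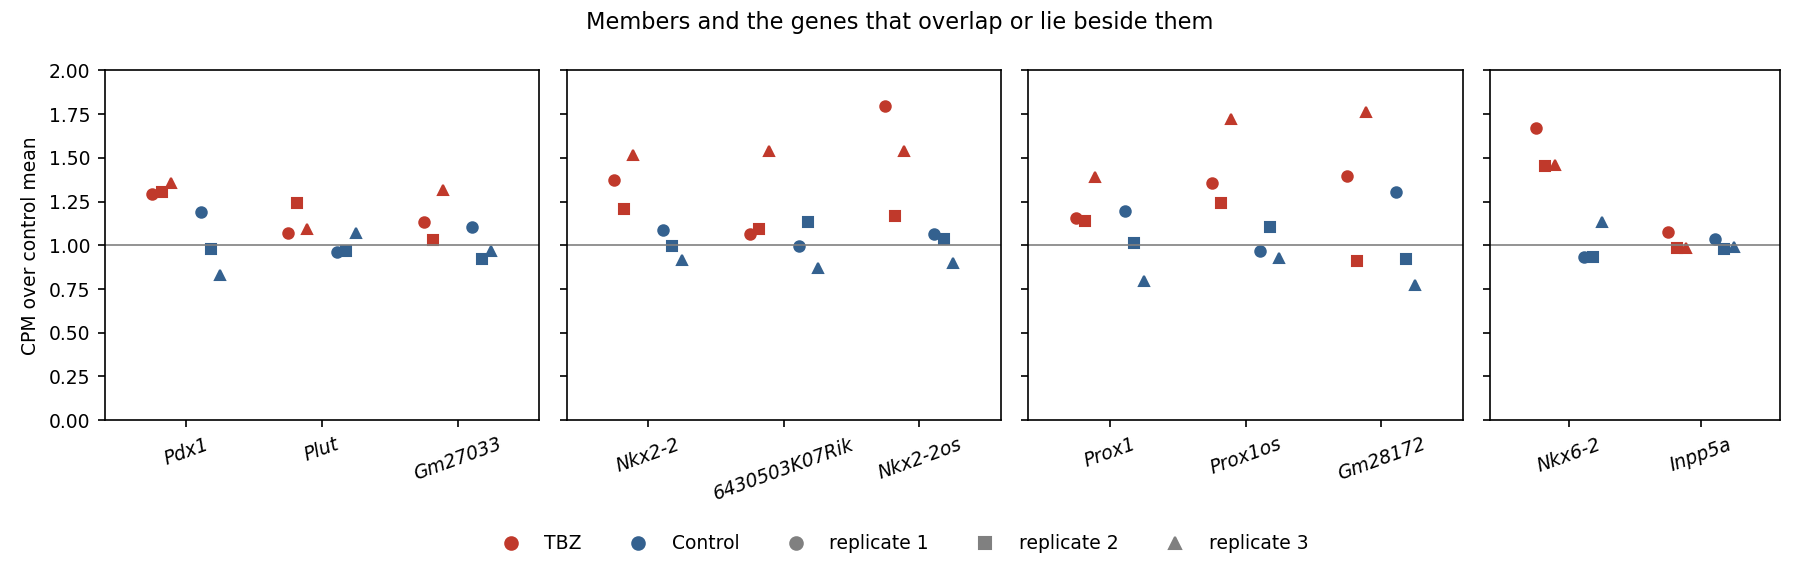
CPM of each gene divided by its mean in the control libraries (vertical axis, from 0) for 4 of the homeobox genes and the genes that overlap or adjoin them. Inpp5a lies between 0.977 and 1.08 in every library, while Nkx6-2 lies between 1.45 and 1.67 in TBZ and between 0.933 and 1.13 in control buds.

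Of 15 other transcription factors of pancreatic progenitors, all were tested, 12 lay above 0 and 3 below, and none passed the edgeR test, where 50.1% of all tested genes lay above 0. The list was at 12 of 15 without control replicate 3 too. Its median log2 fold change was 0.14, and 0.08 without control replicate 3, against 0.42 and 0.34 for the 6 homeobox genes and 0.00 for all tested genes in both fits. Gata4, a zinc finger factor needed for pancreas outgrowth, stood at 72.6 ± 3.09 CPM in TBZ and 58.6 ± 4.75 CPM in control buds, and Nr5a2, an orphan nuclear receptor of progenitors and acinar cells, at 103 ± 7.89 and 85.1 ± 2.65 CPM (SD, n = 3 each). Their edgeR adjusted p-values were 0.124 and 0.141, and both passed with DESeq2 (0.00559 and 0.00804), where 1.1% of its tested genes passed with TBZ higher. Ptf1a, which is shared with Pdx1 in early progenitors and then kept in acinar cells, was at 0.15 ± 0.11 (SE, adjusted p = 0.711).

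The TALE homeobox proteins, among them PBX and MEIS, bind DNA together with PDX1 and other homeodomain proteins. Of 9 such genes, 1 was above 0 and 8 below and none passed the edgeR test. A difference between these genes and the 6 homeobox genes was not tested. The median was -0.07, with -0.06 and 1 of 9 above 0 without control replicate 3, and -0.12 with 0 of 9 above 0 without TBZ replicate 2. Meis3 stood at 21.1 ± 0.555 CPM in TBZ and 24.2 ± 0.657 CPM in control buds, Meis1 at 160 ± 8.67 and 176 ± 6.22 CPM, and Pbx2 at 123 ± 1.78 and 129 ± 2.61 CPM (SD, n = 3 each), with edgeR adjusted p-values of 0.295, 0.439 and 0.618. These genes are also made in mesenchyme. Of 12 mesenchymal markers 6 were above 0 and 6 below, with a summed level of 7560 to 8640 CPM in TBZ and 7385 to 8543 CPM in control buds, and their part in the TALE values was not tested. The 2 of highest FPKM, the collagen genes Col1a1 and Col3a1, had log2 fold changes of 0.08 and -0.03.

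Among 15 factors of the endocrine cascade, which begins when trunk cells switch on Neurog3, 14 were above 0 and 1 below. No factor passed the edgeR test, and the median log2 fold change was 0.24. Without control replicate 3 the count was 13 and the median 0.18, and without TBZ replicate 3 they were 13 and 0.13. The 3 genes with the smallest p were Cbfa2t3, a corepressor gene, at 43.8 ± 2.62 CPM in TBZ and 33.2 ± 2.77 CPM in control buds, Neurog3 at 114 ± 11.7 and 84.8 ± 8.87 CPM, and Myt1, a zinc finger factor of endocrine cells, at 33.7 ± 5.08 and 25.9 ± 1.19 CPM (SD, n = 3 each). Each had groups that did not overlap, a pattern that 8.47% of all tested genes showed with TBZ higher. Their edgeR adjusted p-values were 0.0794, 0.124 and 0.231. These 3 passed with DESeq2, where 1.1% of its tested genes passed with TBZ higher. The log2 fold changes of 0.40, 0.43 and 0.38 were near that of Nkx2-2 at 0.45. Mafa, a factor of mature beta cells, was at 0.24 ± 0.21 (SE) with 1.67 CPM in TBZ and 1.41 CPM in control buds.

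Of 12 beta cell genes, many of them known targets of PDX1 or NKX6-1, 10 were tested, 9 were above 0 and none passed the edgeR test, with a median of 0.25, and 0.21 with 9 above 0 without control replicate 3. The count and the median were 8 and 0.17 without TBZ replicate 1, 10 and 0.37 without TBZ replicate 2, and 9 and 0.17 without TBZ replicate 3. The 12 genes summed to 259, 208 and 274 CPM in TBZ replicates 1 to 3, against 219, 214 and 196 CPM in control replicates 1 to 3. Glp1r and Ucn3, genes of mature beta cells, averaged 0.232 and 0.128 CPM in TBZ and 0.192 and 0.104 CPM in control buds and did not pass the filter on low counts. Kcnj11, the channel pore gene, stood at 39.5 ± 3.86 CPM in TBZ and 30.7 ± 3.24 CPM in control buds (SD, n = 3 each). Its log2 fold change was 0.37 ± 0.09 (SE), at an edgeR adjusted p of 0.205 and a DESeq2 adjusted p of 0.0193. It was the only gene of this list that DESeq2 called, where 1.1% of its tested genes passed with TBZ higher. Pcsk1, which processes prohormones, was at 0.36 ± 0.13 (SE, adjusted p = 0.404). Ins1 and Ins2, direct targets of PDX1, had log2 fold changes of 0.24 ± 0.16 and 0.26 ± 0.15 (SE), with edgeR adjusted p of 0.669 and 0.633. The lowest TBZ library of Ins2, at 20.3 CPM, lay under its lowest control library, at 21.9 CPM. Others of the list were nearer 0, with Iapp at 0.05 ± 0.15 and Slc2a2 at 0.10 ± 0.12 (SE). G6pc2, the only tested gene below 0, was at -0.07 ± 0.31 (SE).

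**Figure D4:**
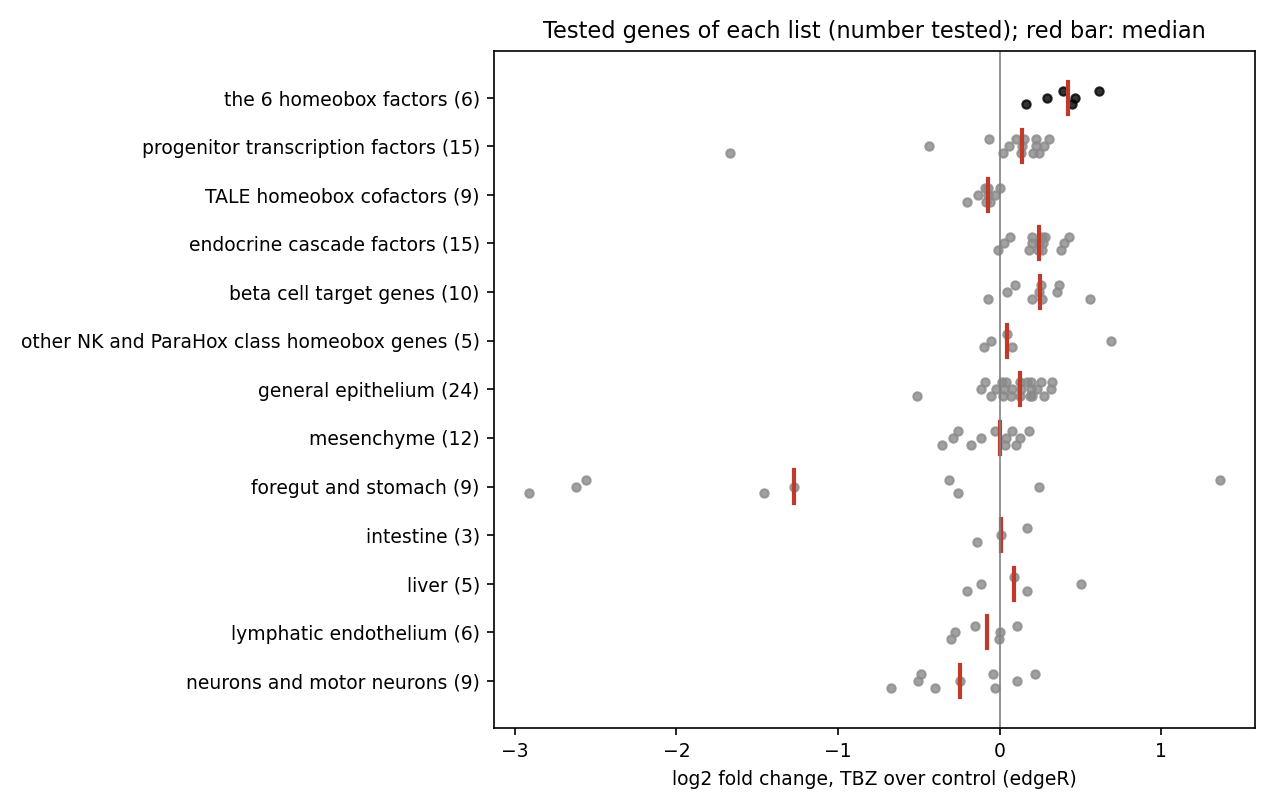
Log2 fold change of TBZ over control (edgeR, horizontal axis) of each tested gene in the lists of factors, targets and cell type markers (rows), with the median of each list as a red bar. The 6 homeobox genes have a median of 0.42, the TALE cofactors one of -0.07 and general epithelial genes one of 0.13.

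Most other homeobox genes lay on the other side of 0. Of 101 further tested genes that the deposited table classes as Homeobox, 33 were above 0 and 68 below, with a median log2 fold change of -0.07, and none passed the edgeR test in either direction. Without control replicate 3 the split was 43 above and 58 below, with a median of -0.03. At an unadjusted edgeR p under 0.05 there were 15 of these 101 genes, 3 higher and 12 lower. Of the 18226 tested genes 9.61% were under that limit in either direction, 925 with TBZ higher (5.08%) and 827 with TBZ lower. DESeq2 called none of the 101, where 1.43% of its tested genes passed in either direction. Of 17 other NK and ParaHox genes, 5 passed the filter on low counts, 3 above 0 and 2 below. Among them Nkx2-5, Nkx2-3 and Nkx3-2, factors of splenopancreatic and gut mesenchyme, had log2 fold changes of 0.08, 0.04 and -0.05. Nkx2-9 was at 0.69 ± 0.38 (SE, edgeR adjusted p = 0.606) with 0.426 CPM in TBZ and 0.260 CPM in control buds, and Prox2 at -0.09. Nkx1-1, Nkx1-2, Nkx2-1, Nkx2-6 and Gsx2 had no read.

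**Figure D5:**
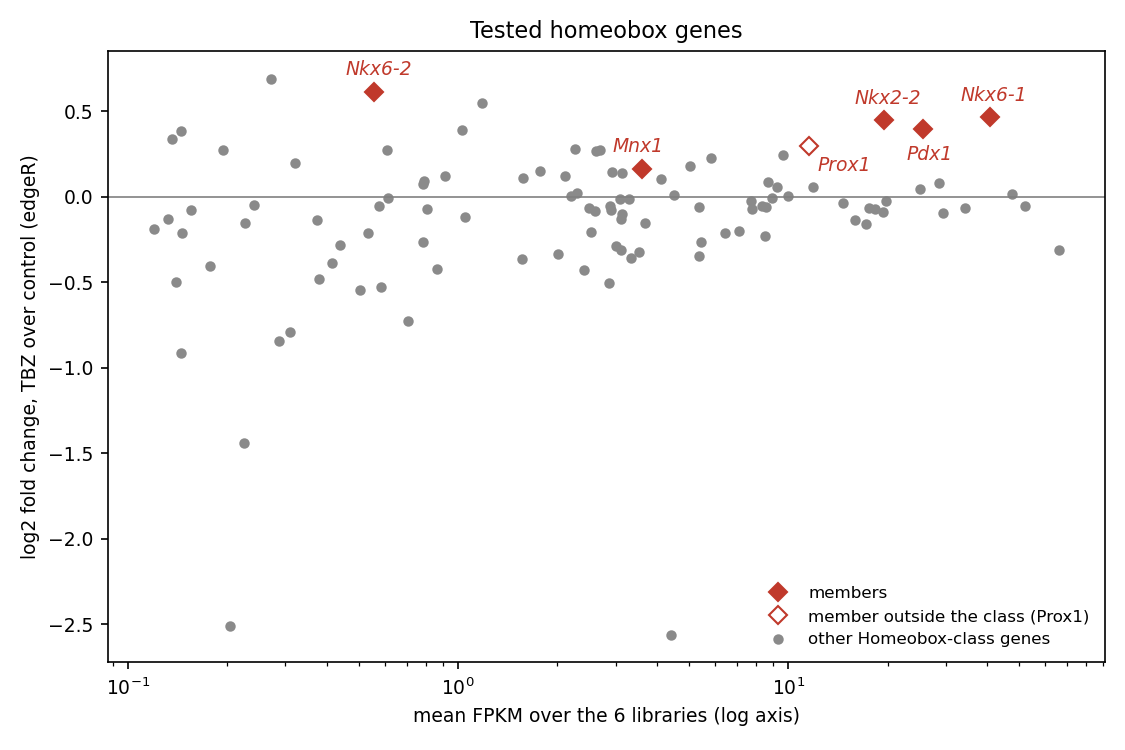
Log2 fold change of TBZ over control (edgeR, vertical axis) against mean FPKM over the 6 libraries (horizontal log axis) for tested genes of the Homeobox class and for Prox1. The 6 homeobox genes lie between 0.16 and 0.61, and 68 of the 101 others lie below 0.

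General epithelial genes were mostly above 0, like the 6 homeobox genes. Of 24 such markers 19 were above 0 and 5 below, the median log2 fold change was 0.13 and none passed the edgeR test. With DESeq2 3 passed, Cdh1, Ehf and Ocln (adjusted p of 0.00022, 0.0123 and 0.0213), where 1.1% of its tested genes passed with TBZ higher. The count and the median were 22 and 0.17 without control replicate 3, 14 and 0.09 without control replicate 2, and 17 and 0.07 without TBZ replicate 3. Their summed level was 3354 to 3693 CPM in TBZ and 3072 to 3402 CPM in control buds. Krt8, a keratin, was at 0.02 and Epcam, an epithelial adhesion molecule, at 0.13, the 2 epithelial markers of highest FPKM, while Cdh1, which encodes E-cadherin, was at 0.27 ± 0.05 (SE, edgeR adjusted p = 0.0759). The 5 below 0 were Krt19 at -0.51, the largest change of the list in either direction, Krt18 at -0.11, Cldn4 at -0.09, Krt7 at -0.05 and Cldn7 at -0.02. Each epithelial marker had reads. With an epithelial score (the median of the markers' centred log2 CPM in each library) as a covariate, the log2 fold changes were 0.47 for Pdx1, 0.46 for Nkx6-1, 0.56 for Nkx6-2, 0.38 for Nkx2-2, 0.30 for Prox1 and 0.01 for Mnx1, with edgeR adjusted p from 0.410 to 0.985. Of 8 intestinal markers 3 passed the filter, with sums of 12.7 to 15.6 CPM in TBZ and 11.9 to 13.9 CPM in control buds, of which Vil1 stood at 12.04 CPM in TBZ and 10.71 CPM in control buds and Lgals4 at 1.20 CPM in both. Of 9 tested markers of neurons 2 were above 0 and 7 below, with sums of 137 to 144 CPM in TBZ and 128 to 171 CPM in control buds, led by Tubb3 at 35.7 and 36.9 CPM, and Ret at 48.0 and 41.2 CPM. The part of these cell types in the result was not tested.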

How the data were processed

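The data are RNA-seq of 3 TBZ and 3 control libraries. STAR, HTSeq and mm10 are named, without versions, in the submitters' processing notes. The deposited table holds raw read counts per gene and library. The authors' FPKM values use the gene length in that table. The signal columns, which are the authors' group means of normalized counts, were not used here. The authors' log2 fold change and p-value columns, adjusted p included, come from a comparison whose tool is not given in the sources used here. Their values for the 6 genes nearly equal those of the DESeq2 fit made here. Other columns of the deposited table hold identity, position and length, and the start and end of all 6 genes equal those of GENCODE M21.

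From the counts, edgeR 4.0.16 (R 4.3.3) with TMM scaling and filterByExpr tested 18226 of 31250 genes with a read by its quasi-likelihood test, two-sided, with Benjamini-Hochberg adjustment over all of them, and an adjusted p under 0.05 counted as changed. The SE is the size of the log2 fold change divided by the root of the F statistic, and 95% intervals use the t quantile of that fit. CPM values are TMM-scaled. Limma 3.58.1 on log2(FPKM + 0.5), with pseudocounts of 0.1 and 1 too, DESeq2 1.42.0 and the other alternatives are in the closing section. The steps were tested on simulated data. No label says that the replicates were separate cultures or litters. The p-values therefore cover only the spread among these libraries, which may be technical. No pair of libraries of a group agreed within sampling noise (chi-square per degree of freedom from 6.94 to 20.2).

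The 6 genes, the lists and the tests were chosen with earlier results of these data known. Named were the 6 genes, the 3 genes of smallest p in each list of factors or targets, the 2 markers of highest FPKM in each marker list, every gene within 20 kb, and the 5 genes most like Pdx1. Ptf1a, Mafa, Ins1, Ins2, Iapp, Slc2a2, G6pc2, Cdh1, Ehf, Ocln, Krt19, Krt18, Krt7, Cldn4, Cldn7 and Tff2 were named after their values were seen. So were the markers and neighbours given for a gene's other tissues, the Homeobox class and the promoter motifs. Genes that this rule names but the text does not are not reported here. Protein sequences were not analysed here.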

Additional observations from a re-analysis of the deposited data

How the results depend on the processing

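All 6 homeobox genes were above 0 in each of the 15 fits. These fits reuse the same libraries, so they are not separate results. The lowest value was that of Mnx1 with the epithelial covariate, 0.01 ± 0.16 (SE). None passed with edgeR, RLE scaling, the 3 limma fits on FPKM, the replicate block or the epithelial covariate. With DESeq2 3 passed, at log2 fold changes of 0.40 for Pdx1, 0.46 for Nkx6-1 and 0.45 for Nkx2-2. Of its tested genes 1.1% passed with TBZ higher. With no filter on low counts 4 passed in edgeR, where 0.842% of genes passed with TBZ higher. These 4 were at 0.39 for Pdx1, 0.46 for Nkx6-1, 0.44 for Nkx2-2 and 0.29 for Prox1. The cause of these differences between fits was not tested. Leaving out each library in turn, 0 to 1 of the genes passed, and the log2 fold change ran from 0.28 to 0.54 for Pdx1, 0.38 to 0.54 for Nkx6-1, 0.54 to 0.71 for Nkx6-2, 0.36 to 0.53 for Nkx2-2, 0.07 to 0.31 for Mnx1 and 0.16 to 0.44 for Prox1.

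Over all genes 34 changed with edgeR, against 222 with DESeq2, 445 with no filter, 13, 14 and 4 with limma on FPKM at pseudocounts of 0.5, 0.1 and 1, 1 with the epithelial covariate, and 5 to 36 with a library left out (13 without control replicate 2, 11 without TBZ replicate 1, 5 without TBZ replicate 3). With the replicate block 5 changed. Same-numbered libraries did not deviate together over the tested genes (correlations of 0.00, -0.15 and -0.08). With 3 libraries per group this cannot show whether the numbers mark a shared litter or day, which the labels do not say. Nkx6-2 rests on 37 to 57 reads a library.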
